A study of Homo sapiens with 6 samples.

Results

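Interferon-stimulated genes and RNA sensors were followed in 67R cells, a lung adenocarcinoma line, after knockdown of BCAT1, an enzyme that transfers the amino group of branched-chain amino acids. The 47 genes were a named list of RNA sensors, the STAT and IRF factors that carry the interferon signal, and the effector genes that these factors switch on. All 47 were among the 60664 genes of the deposited table. Of these, 38 averaged 1 TPM or more and were tested, and 9 lay below that level and are given as low. The rule that lists them uses no measured value, but the list was drawn up with earlier results of these data known.

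67R cells are NCI-H1975 cells, an EGFR-mutant line, that had acquired resistance to the EGFR inhibitor ASK120067 through culture in rising doses of the drug. The control cells (siNC) received a negative control siRNA and the knockdown cells (siBCAT1) received siRNA against BCAT1, so both groups were transfected resistant cells and no other treatment was named for them. In this design the loss of BCAT1 and the change of siRNA go together, so their effects cannot be told apart. Each group had 3 libraries, 6 in all, and the labels named neither the time after transfection nor which siRNA the knockdown libraries received. The study's methods use the name siBCAT1 for its siRNA siBCAT1-2 and speak of independent experiments in general, without tying either to these libraries, so the p-values measure the spread between these libraries, which may be technical.

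Double-stranded or uncapped RNA in the cytoplasm is recognised by RIG-I (gene DDX58) and MDA5 (gene IFIH1), which signal through the adaptor MAVS to switch on type I interferon. Secreted interferon binds its receptor, and the kinases JAK1 and TYK2 then phosphorylate STAT proteins, STAT2 among them, which join IRF9 to form the factor ISGF3. ISGF3 binds a short DNA word, the interferon-stimulated response element (ISRE), in the promoters of interferon-stimulated genes. Many tumour cells keep these genes at a low constitutive level without added interferon.

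The words below were taken from the RefSeq promoters of GRCh38.p14, which run from 250 bases before to 50 bases after a start, and are shown because they are the element that most of the members' promoters share. Each line is 30 bases long, written 5′ to 3′ on the strand of the gene, with the match to the ISRE word GAAANNGAAA, searched on both strands, in capitals. Where a promoter held several matches, 1 is shown. The first 7 belong to genes that were lower after knockdown and the last 3 to genes that were not. These last 3 had higher means in siBCAT1 cells. Other genes with the word that did not pass the threshold, such as DDX60 and IFIT1, had lower means and are not shown.
IFIH1, chr2:162318686-162318715, minus strand, 21 bases before the start: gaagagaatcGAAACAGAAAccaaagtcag
IFIT3, chr10:89327865-89327894, plus strand, 122 bases before the start, word on the opposite strand: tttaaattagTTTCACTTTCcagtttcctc
IFITM3, chr11:320876-320905, minus strand, 35 bases before the start: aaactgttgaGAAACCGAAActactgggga
DTX3L, chr3:122564322-122564351, plus strand, 6 bases before the start: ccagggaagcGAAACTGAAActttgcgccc
SAMD9, chr7:93118096-93118125, minus strand, 136 bases before the start: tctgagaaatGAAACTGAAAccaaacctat
IFI6, chr1:27672266-27672295, minus strand, 93 bases before the start: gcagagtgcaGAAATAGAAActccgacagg
LGALS3BP, chr17:78979962-78979991, minus strand, 58 bases before the start: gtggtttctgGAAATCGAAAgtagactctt
ISG15, chr1:1013380-1013409, plus strand, 107 bases before the start: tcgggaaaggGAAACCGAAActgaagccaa
BST2, chr19:17405741-17405770, minus strand, 130 bases before the start: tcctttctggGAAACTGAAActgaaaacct
EIF2AK2, chr2:37156967-37156996, minus strand, 6 bases before the start: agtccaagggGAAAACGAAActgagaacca

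PARP9 and DTX3L lie head to head on chromosome 3, and the word shown for DTX3L is also the PARP9 word, 41 bases before the PARP9 start. A promoter entry was matched for 39 of the 47 members. OAS2, OASL, IRF7, IFIT2, IFITM2, MX2, USP18 and TRIM22 were not matched. The ISRE word was found in 28 of the 39 (71.8%), beside 1195 of the 27305 genes with a promoter entry (4.38%) and 3.81% of the tested genes with one. It was found in 9 of the 12 members that were lower after knockdown (75%) and in 14 of the 20 tested members that were not (70%). The members that lacked it among the 12 were UBE2L6, HERC6 and IRF9. Tested members with the word had a median log2 fold change (siBCAT1 minus siNC, of TPM + 1) of -0.39 (23 genes, range -1.02 to 0.41) and those without it one of -0.57 (9 genes, range -0.92 to -0.03). The word of the interferon-gamma activated site (GAS), TTCNNNGAA, which reads the same on both strands and does not contain the ISRE word, was found in 12 of the 39 (30.8%) and in 9.38% of all genes with an entry. The GAS word was in 1 of the 12 lower members (8.33%), 7 of the 20 tested members that were not lower (35%) and 4 of the 7 low ones (57.1%). A match of letters is a description and not a measurement of binding.

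The unit of the authors' table was taken to be TPM, in which reads are scaled by the length of the gene and by the library's total. For each gene the values below are in the order of replicates 1, 2 and 3 of each group, an error after ± is the SD over the 3 libraries, and SE is the standard error of a log2 fold change. The TPM values summed to between 992512 and 995593 per library, with 23152 to 25043 genes above 0, and they hold no read counts, so depth is unknown. BCAT1 itself, the targeted gene, was at 42.7, 42.2 and 29.8 TPM in siNC cells and 8.78, 7.10 and 8.0 TPM in siBCAT1 cells (log2 fold change -2.12, SE 0.15, adjusted p = 0.000272 by limma), so the target agreed in direction with the labels. Markers of T, B and NK cells were low, with sums between 0.71 and 2.34 TPM over the 6 libraries and CD3D, CD3E, CD2 and MS4A1 at 0 in each. Endothelial markers summed to between 0.80 and 2.69 TPM. Myeloid markers summed to 32.6 to 41.0 TPM in siNC and 55.3 to 61.8 TPM in siBCAT1 cells, nearly all of it CD68, with CLEC9A, CLEC4C and FCGR3A at 0. CD68 was higher in siBCAT1 cells (adjusted p = 0.00342 by limma). Fibroblast markers summed to 253 to 274 and 189 to 245 TPM, nearly all of it COL1A2, with DCN and LUM at 0. By limma, COL1A1 (adjusted p = 0.0197) and PDGFRB (0.0110) were lower in siBCAT1 cells, and COL1A2 did not pass the threshold (0.170). COL3A1 was under the filter and went the other way, at 0.13 to 0.33 TPM in siNC and 0.47 to 0.79 TPM in siBCAT1 cells. The lung markers NKX2-1, NAPSA and SFTPB were near 0 (summed 0.09 to 0.42 TPM). Of 8 epithelial markers, 6 were lower in siBCAT1 cells at an adjusted p under 0.05, and the sum of the 8 was 2613 to 3006 TPM in siNC and 1720 to 2009 TPM in siBCAT1 cells. EPCAM went the other way without passing the threshold (log2 fold change 0.56, adjusted p = 0.0732 by limma), and MUC1 overlapped between groups. The part of these marker differences in the results below was not tested. In bulk RNA, fewer cells that express a gene and less RNA per cell cannot be told apart.

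After BCAT1 knockdown, 12 of the 38 tested genes (31.6%) fell and none rose, by limma's moderated test on log2(TPM + 1) at an adjusted p under 0.05. Over all 14286 tested genes, 10.4% were lower and 16.7% were higher at the same threshold. The 12 were the sensor IFIH1, the factor IRF9 and the effectors IFIT3, IFITM3, UBE2L6, HERC6, PARP9, DTX3L, TRIM21, SAMD9, IFI6 and LGALS3BP. At an unadjusted p under 0.05, 19 tested members were lower and 1, BST2, was higher. No share of all tested genes is given at that threshold, so this count is not set against a background. The log2 fold changes of the 12 lay between -1.02 (IFIT3) and -0.33 (IFITM3) on the TPM + 1 scale, which shrinks those of weakly expressed genes. In mean TPM, IFIH1 was 69.8% lower, SAMD9 56.2%, HERC6 55.9% and IFIT3 54.4%, and with a pseudocount of 0.1 the log2 fold change of IFIH1 was -1.70.

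Of the 38, 32 had a negative and 6 a positive log2 fold change, and the median was -0.44, with a range of -1.23 to 0.41. Over all tested genes, 6515 had a negative and 7771 a positive log2 fold change, and their median was 0.04. For 17 of the 38 (44.7%) every siBCAT1 library lay below every siNC library, and for 2 (EIF2AK2 and BST2) every siBCAT1 library lay above. Over all tested genes these shares were 18% and 26.1%. In the other 19 the groups overlapped. With the low genes included, the siBCAT1 mean was below the siNC mean in 39 of the 47 and above it in 8.

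The count of 12 depended on single libraries. It was 4 without siNC replicate 1, 16 without siNC replicate 2, 5 without siNC replicate 3, 7 without siBCAT1 replicate 1, 9 without siBCAT1 replicate 2 and 5 without siBCAT1 replicate 3. In the same order, 796, 1430, 981, 976, 903 and 909 of all 14286 tested genes were lower, beside 1483 with all libraries. With no filter on low values it was 6 of the 47, made up of 5 of the 12 and TLR3, beside 960 of 31860 genes. Lost were IFIH1 (adjusted p = 0.0643 by limma), TRIM21 (0.0558), IFI6 (0.0876), PARP9 (0.101), IFIT3 (0.109), IRF9 (0.121) and IFITM3 (0.151). The count was 1 (IFIT3) among changes of 1 or more on the log2 scale, beside 224 lower genes of all tested. HERC6, DTX3L, SAMD9 and LGALS3BP kept an adjusted p under 0.05 with each library left out in turn. For 5 tested members (IFIH1, DDX60, IFITM1, MX2 and SAMD9L) the siBCAT1 mean was under 1 TPM, so that they passed the filter through their siNC values, and 1 of them, IFIH1, is among the 12. All 5 are among the 32 with a negative log2 fold change. IFIH1, DDX60 and SAMD9L are also among the 17 whose siBCAT1 libraries all lay below, so the filter favoured that direction in these counts.

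**Figure D1:**
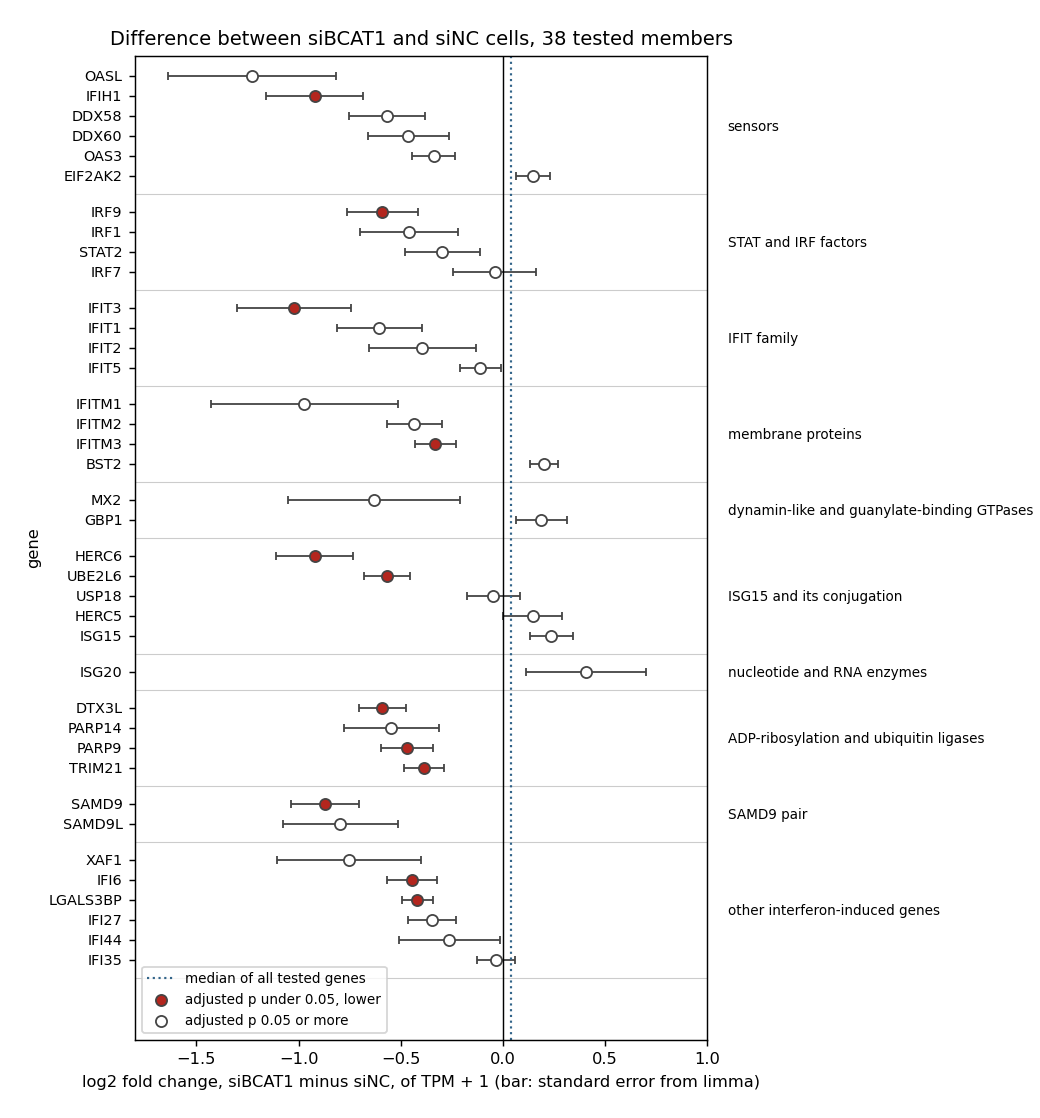
Difference between siBCAT1 and siNC cells for the 38 tested genes, in rows by role, as the log2 fold change of TPM + 1 on the horizontal axis with its standard error as a bar. Filled points are the 12 genes with an adjusted p under 0.05, all left of 0, and the dotted line is the median of all tested genes at 0.04.

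Among the 9 RNA sensors, 6 were tested and 1, IFIH1, fell. IFIH1 (ENSG00000115267, chromosome 2, 162267079 to 162318703, GRCh38) encodes MDA5, the sensor of long double-stranded RNA. It was at 2.35, 1.75 and 1.89 TPM in siNC cells and 1.00, 0.54 and 0.27 TPM in siBCAT1 cells. The groups did not overlap, and siBCAT1 replicate 3 was the lowest. The means were 1.997 ± 0.314 and 0.603 ± 0.369 TPM (SD, n = 3 each), and the log2 fold change was -0.92 (SE 0.24, adjusted p = 0.0283 by limma). Its adjusted p was 0.0670 without siNC replicate 1, 0.0593 without siNC replicate 3, 0.0651 without siBCAT1 replicate 2 and 0.0589 without siBCAT1 replicate 3. With no filter on low values it was 0.0643.

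DDX58, which encodes RIG-I, the sensor of RNA with a 5′ triphosphate, was at 4.25, 2.72 and 4.47 TPM in siNC cells and 2.22, 2.24 and 2.15 TPM in siBCAT1 cells. The siBCAT1 libraries were nearly equal and all below the siNC libraries, whose replicate 2 was lowest. The log2 fold change was -0.57 (SE 0.19), with an adjusted p of 0.0596 in all libraries (limma). With a library left out it ranged from 0.0159 (without siNC replicate 2) to 0.158. DDX60, a helicase described as a cofactor of RIG-I-like sensing, was at 1.99, 1.29 and 1.80 TPM in siNC cells and 1.02, 0.90 and 0.91 TPM in siBCAT1 cells, without overlap and with an adjusted p of 0.129 (limma, log2 fold change -0.46). TLR3, the endosomal sensor of double-stranded RNA, was under the filter, at 0.61, 0.74 and 0.36 TPM in siNC cells and 0.12, 0 and 0.04 TPM in siBCAT1 cells. The TLR3 groups did not overlap. With no filter on low values it was lower at an adjusted p of 0.0320 (limma, log2 fold change -0.57, SE 0.11), and none of the other 8 low genes passed.

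EIF2AK2 encodes PKR, the kinase that stops translation when it binds double-stranded RNA. It was at 21.2, 22.9 and 21.4 TPM in siNC cells and 26.2, 23.5 and 23.2 TPM in siBCAT1 cells, so that every siBCAT1 library lay above every siNC library. The difference did not pass the threshold (log2 fold change 0.15, SE 0.08, adjusted p = 0.234 by limma). Its direction was opposite to that of IFIH1 and DDX58, and the differences between these genes were not tested.

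The oligoadenylate synthetases make a second messenger that activates the ribonuclease RNase L. OAS3, the most abundant of them in TPM, was at 22.7, 25.1 and 20.4 TPM in siNC cells and 19.5, 17.2 and 16.5 TPM in siBCAT1 cells, without overlap. Its log2 fold change was -0.34 (SE 0.11, adjusted p = 0.0523 by limma). OASL, the family member without synthetase activity, was at 13.6, 6.56 and 14.1 TPM in siNC cells and 4.89, 6.76 and 1.84 TPM in siBCAT1 cells. The siNC replicate 2 value lay inside the siBCAT1 range, so the groups overlapped. The log2 fold change of -1.23 had a SE of 0.41 and an adjusted p of 0.0649 (limma). With a library left out this p ranged from 0.0435 (without siNC replicate 2) to 0.210.

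OAS1 and OAS2 were under the filter. OAS1 was at 1.65, 0.90 and 0.95 TPM in siNC cells and 0.43, 0.64 and 0.42 TPM in siBCAT1 cells, without overlap. OAS2 was at 0.73, 0.30 and 0.82 TPM in siNC cells and 0.31, 0.50 and 0.12 TPM in siBCAT1 cells, with overlap.

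The 4 STAT and IRF factors all had negative log2 fold changes, and 1 of them, IRF9, fell. IRF9 (chromosome 14, 24161053 to 24166565), the DNA-binding subunit of ISGF3, was at 22.4, 14.3 and 17.3 TPM in siNC cells and 13.5, 10.9 and 10.1 TPM in siBCAT1 cells. The groups were apart by less than 1 TPM, between siNC replicate 2 and siBCAT1 replicate 1. The means were 18.0 ± 4.07 and 11.5 ± 1.77 TPM (SD, n = 3 each) and the log2 fold change was -0.59 (SE 0.17, adjusted p = 0.0428 by limma). The adjusted p was 0.0264 without siNC replicate 2 and between 0.0605 and 0.138 without any other library. Every 50-base word of its longest GENCODE 29 transcript is also found in the readthrough gene AL136295.5, so the split of reads between them is uncertain.

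STAT2, a partner of IRF9 in ISGF3, was at 13.1, 8.93 and 9.88 TPM in siNC cells and 10.7, 7.37 and 7.42 TPM in siBCAT1 cells, with overlap (log2 fold change -0.30, SE 0.18, adjusted p = 0.274 by limma). IRF1, a factor induced by interferon-gamma and by NF-kappaB, was the most abundant of the 4 in TPM. It was at 60.4, 36.4 and 58.1 TPM in siNC cells and 45.9, 38.2 and 27.3 TPM in siBCAT1 cells. The siNC replicate 2 library again lay within the siBCAT1 range, and the log2 fold change of -0.46 had a SE of 0.24 (adjusted p = 0.199 by limma). IRF7, the factor that amplifies interferon-alpha production, was at 1.42, 1.47 and 1.88 TPM in siNC cells and 1.84, 1.09 and 1.67 TPM in siBCAT1 cells. Its groups overlapped almost wholly, with a log2 fold change of -0.04 (SE 0.20) whose sign turned under 3 alternatives.

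**Figure D2:**
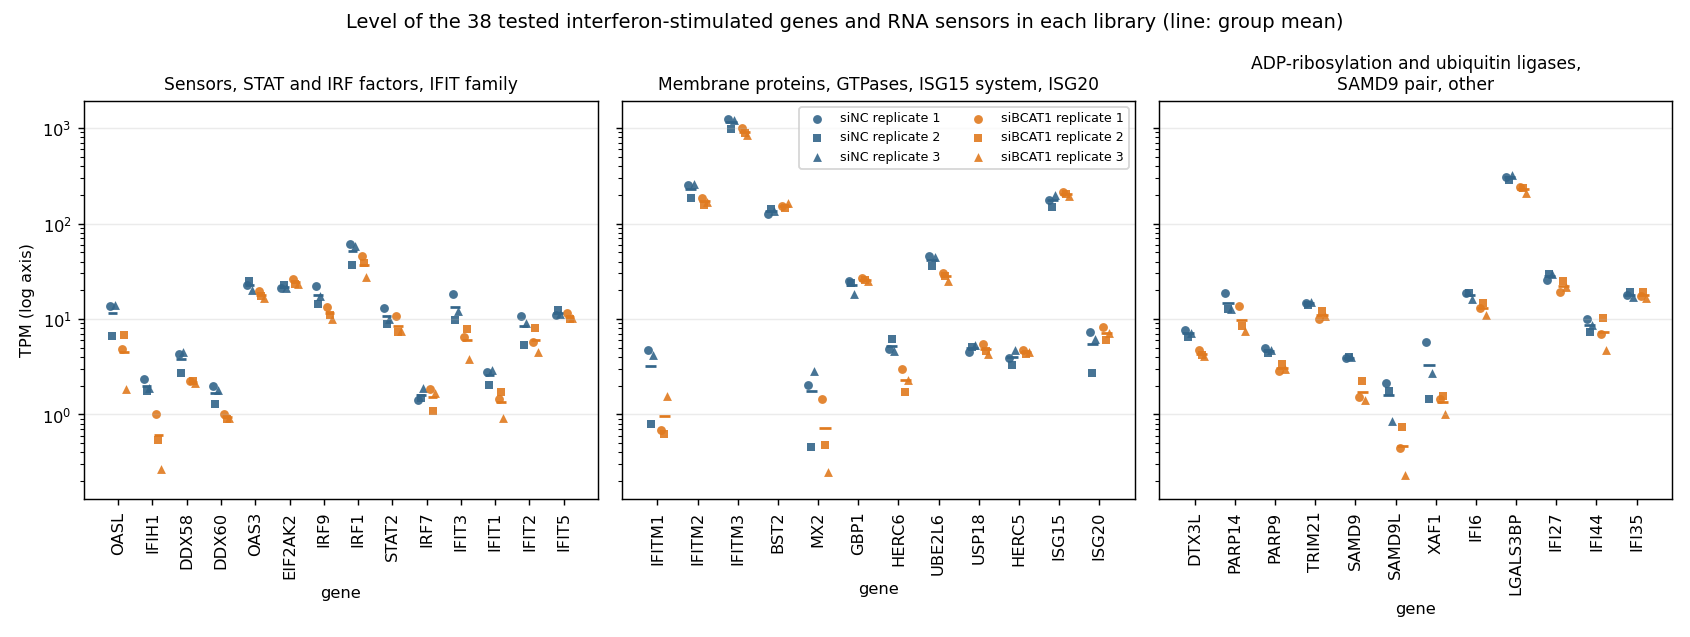
Level of the 38 tested genes in each library in TPM on a log axis, siNC in blue and siBCAT1 in orange, with a marker shape per replicate and a line at each group mean. IFITM3 stands highest, from 846 to 1247 TPM, and IFIH1, DDX60 and SAMD9L lie among the lowest, with means under 2 TPM.

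The effectors were 34 genes, of which 28 were tested, 10 fell and 18 did not pass the threshold. Their level was uneven: IFITM3 alone made up 47.2% of the summed TPM of the 47 members, and 5 members (IFITM3, LGALS3BP, IFITM2, ISG15 and BST2) had a mean of at least 50 TPM, while 23 had a mean below 5 TPM.

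The IFIT proteins bind foreign RNA and block its translation. Their genes lie side by side on chromosome 10, from 89283694 (IFIT2) to 89421001 (IFIT5), and 1 of the 4, IFIT3, fell. IFIT3 was at 18.1, 9.82 and 12.0 TPM in siNC cells and 6.50, 7.93 and 3.79 TPM in siBCAT1 cells. No siBCAT1 library reached the lowest siNC library, which was replicate 2. The means were 13.3 ± 4.28 and 6.07 ± 2.10 TPM (SD, n = 3 each) and the log2 fold change was -1.02 (SE 0.28, adjusted p = 0.0340 by limma). The adjusted p was 0.122 without siNC replicate 1, 0.0959 without siNC replicate 3, 0.0894 without siBCAT1 replicate 1 and 0.0936 without siBCAT1 replicate 3.

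Of the other IFIT genes, IFIT1 did not overlap between groups, at 2.03 to 2.93 TPM in siNC and 0.92 to 1.73 TPM in siBCAT1 cells (log2 fold change -0.60, adjusted p = 0.0716 by limma). IFIT2 overlapped, at 5.39 to 10.7 and 4.55 to 7.96 TPM (log2 fold change -0.40, adjusted p = 0.308 by limma), and 8.4% of the 50-base words of its transcript are shared with other genes. IFIT5 was at 10.9 to 12.5 and 10.1 to 11.6 TPM, a log2 fold change of -0.11 with an adjusted p of 0.452 (limma).

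The membrane effectors included the most abundant member in TPM. IFITM proteins restrict the fusion of enveloped viruses with the cell, and IFITM3 (chromosome 11, 319669 to 327537) fell. It was at 1247, 981 and 1216 TPM in siNC cells and 991, 892 and 846 TPM in siBCAT1 cells. The groups overlapped, since siNC replicate 2 lay below siBCAT1 replicate 1. The means were 1148 ± 145 and 910 ± 74.2 TPM (SD, n = 3 each), or a log2 fold change of -0.33 (SE 0.10, adjusted p = 0.0484 by limma). The call was lost without any library other than siNC replicate 2, at adjusted p values of 0.171 and 0.164 without siNC replicates 1 and 3 and of 0.0689, 0.143 and 0.156 without siBCAT1 replicates 1, 2 and 3. It was also lost once GC content and gene length were corrected for.

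IFITM2, its close relative, was at 252, 185 and 260 TPM in siNC cells and 187, 156 and 168 TPM in siBCAT1 cells, where siNC replicate 2 lay just under siBCAT1 replicate 1. The log2 fold change was -0.43 (SE 0.14), with an adjusted p of 0.0525 (limma). It ranged from 0.00627 (without siNC replicate 2) to 0.180 with a library left out. IFITM1 was at 4.74, 0.79 and 4.18 TPM in siNC and 0.69, 0.63 and 1.56 TPM in siBCAT1 cells, so that siNC replicate 2 was near the knockdown values. Its log2 fold change was -0.97 (adjusted p = 0.160 by limma). With a library left out the adjusted p ranged from 0.0108 (without siNC replicate 2) to 0.396. The 3 genes share sequence, with 42.3% (IFITM1), 15.8% (IFITM2) and 20.3% (IFITM3) of the 50-base words of each transcript found in other genes, so their separate values are uncertain.

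BST2 encodes tetherin, which holds budding virus particles on the cell surface. It was at 125, 143 and 135 TPM in siNC cells and 153, 147 and 163 TPM in siBCAT1 cells. Every siBCAT1 library lay above every siNC library, and the log2 fold change was 0.20 (SE 0.07, adjusted p = 0.0723 by limma). With a library left out the adjusted p ranged from 0.0440 (without siNC replicate 2) to 0.188. BST2 was the only tested member higher in siBCAT1 cells at an adjusted p under 0.05 when a library was left out.

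ISG15 is a ubiquitin-like protein that interferon induces and that UBE2L6, the conjugating enzyme, and HERC5, the main ligase, attach to other proteins. Within this system UBE2L6 and HERC6 fell while ISG15, HERC5 and USP18 did not pass the threshold. ISG15 was at 178, 149 and 199 TPM in siNC cells and 215, 206 and 195 TPM in siBCAT1 cells. The groups overlapped through siNC replicate 3, and the log2 fold change was 0.24 (SE 0.11, adjusted p = 0.141 by limma).

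UBE2L6 (chromosome 11, 57551656 to 57568284) was at 45.3, 36.0 and 44.5 TPM in siNC cells and 30.3, 28.3 and 25.1 TPM in siBCAT1 cells. The groups were well apart, with means of 41.9 ± 5.15 and 27.9 ± 2.66 TPM (SD, n = 3 each). The log2 fold change was -0.57 (SE 0.11, adjusted p = 0.0113 by limma), and the adjusted p was 0.0550 without siNC replicate 1 and 0.0515 without siNC replicate 3. ISG15 and the enzyme that conjugates it thus had log2 fold changes of opposite sign, and the difference between them was not tested.

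HERC6 (chromosome 4, 88378739 to 88443111), a HECT ligase that neighbours HERC5, was at 4.83, 6.24 and 4.65 TPM in siNC cells and 2.96, 1.71 and 2.27 TPM in siBCAT1 cells. No library of one group reached the other, and the means were 5.24 ± 0.871 and 2.31 ± 0.626 TPM (SD, n = 3 each; log2 fold change -0.92, SE 0.19, adjusted p = 0.0118 by limma). HERC5, which starts at 88457117 on the same strand, overlapped between groups at 3.33 to 4.74 and 4.27 to 4.75 TPM (log2 fold change 0.15, adjusted p = 0.495 by limma). USP18, which removes ISG15 and blocks the interferon receptor, was at 4.52 to 5.36 and 4.32 to 5.47 TPM (log2 fold change -0.05, adjusted p = 0.826 by limma). Of its 50-base words, 23.4% are shared with other genes, mostly USP41.

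PARP9, DTX3L and TRIM21, with PARP14 and TRIM22, make up the ADP-ribosylation and ubiquitin ligase group, in which 3 of the 4 tested genes fell. PARP9 and DTX3L encode the partners of one complex, a mono-ADP-ribosyltransferase with a ubiquitin ligase, and start from the shared region with the ISRE word shown above. PARP9 (chromosome 3, 122527924 to 122564577) was at 4.95, 4.37 and 4.68 TPM in siNC cells and 2.88, 3.39 and 3.02 TPM in siBCAT1 cells. DTX3L (122564238 to 122575203) was at 7.63, 6.49 and 7.05 TPM in siNC cells and 4.71, 4.21 and 4.12 TPM in siBCAT1 cells. For neither gene did the groups overlap, and the replicates lay close together.

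The mean of PARP9 went from 4.67 ± 0.290 to 3.10 ± 0.264 TPM (SD, n = 3 each), or a log2 fold change of -0.47 (SE 0.13, adjusted p = 0.0329 by limma). That of DTX3L went from 7.06 ± 0.570 to 4.35 ± 0.318 TPM (SD, n = 3 each), or a log2 fold change of -0.59 (SE 0.12, adjusted p = 0.0102 by limma). The PARP9 call was lost when siNC replicate 1 (adjusted p = 0.0891), siNC replicate 3 (0.0772) or siBCAT1 replicate 1, 2 or 3 (0.0851, 0.0546 and 0.0783) was left out. The 2 genes overlap at their 5′ ends on opposite strands. The library kit keeps strand, but the strand setting of the authors' assembly was not given in the sources used here.

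PARP14, a larger ADP-ribosyltransferase on the same stretch of chromosome 3, overlapped between groups at 12.6 to 18.6 and 7.52 to 13.6 TPM (log2 fold change -0.55, adjusted p = 0.126 by limma). With a library left out its adjusted p ranged from 0.0487 (without siBCAT1 replicate 1) to 0.353. TRIM21, the cytosolic antibody receptor and ubiquitin ligase (chromosome 11, 4384897 to 4393696), was at 14.7, 13.99 and 15.1 TPM in siNC cells and 9.96, 12.1 and 10.8 TPM in siBCAT1 cells. The groups did not overlap, and the means were 14.6 ± 0.549 and 10.9 ± 1.05 TPM (SD, n = 3 each; log2 fold change -0.39, SE 0.10, adjusted p = 0.0251 by limma). The adjusted p was 0.0861 and 0.0828 without siNC replicates 1 and 3 and 0.0810 and 0.0754 without siBCAT1 replicates 1 and 3.

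SAMD9 and SAMD9L are neighbours on the minus strand of chromosome 7 and encode growth-restraining antiviral proteins. SAMD9 (93099513 to 93118023) was at 3.86, 3.99 and 3.99 TPM in siNC cells and 1.52, 2.25 and 1.42 TPM in siBCAT1 cells. The siNC libraries were nearly equal and well above the siBCAT1 libraries, and the mean was 56.2% lower after knockdown. The means were 3.95 ± 0.0751 and 1.73 ± 0.453 TPM (SD, n = 3 each; log2 fold change -0.87, SE 0.17, adjusted p = 0.00953 by limma). SAMD9L was at 0.86 to 2.15 and 0.23 to 0.74 TPM, without overlap (log2 fold change -0.80, adjusted p = 0.0758 by limma). With a library left out its adjusted p ranged from 0.0353 (without siNC replicate 3) to 0.157.

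IFI6 and LGALS3BP fell among 6 tested genes of the last effector group. LGALS3BP encodes a secreted glycoprotein that binds galectins (chromosome 17, 78971238 to 78980109). It was at 309, 286 and 322 TPM in siNC cells and 242, 236 and 208 TPM in siBCAT1 cells. The groups were apart by more than the spread within either, and the means were 306 ± 18.0 and 229 ± 18.1 TPM (SD, n = 3 each). The log2 fold change was -0.42 (SE 0.07, adjusted p = 0.00704 by limma).

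IFI6, a small membrane protein gene that lies on chromosome 1 from 27666061 to 27672218, was at 18.5, 18.8 and 16.3 TPM in siNC cells and 13.2, 14.7 and 10.9 TPM in siBCAT1 cells. It did not overlap between groups, with means of 17.9 ± 1.38 and 12.9 ± 1.90 TPM (SD, n = 3 each; log2 fold change -0.45, SE 0.12, adjusted p = 0.0343 by limma). Its adjusted p was 0.121, 0.0891 and 0.0602 without siNC replicates 1, 2 and 3, and 0.0901 and 0.0874 without siBCAT1 replicates 1 and 3.

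The other 4 tested genes of that group did not pass the threshold. IFI27, a mitochondrial and nuclear membrane protein gene, was at 25.6 to 29.8 TPM in siNC and 19.1 to 25.3 TPM in siBCAT1 cells, without overlap (log2 fold change -0.35, adjusted p = 0.0653 by limma). With a library left out its adjusted p ranged from 0.0473 (without siBCAT1 replicate 2) to 0.182. XAF1, a proapoptotic gene, spread widely in siNC, from 1.46 to 5.68 TPM, beside 1.02 to 1.57 TPM in siBCAT1 cells (log2 fold change -0.75, adjusted p = 0.159 by limma). The adjusted p of XAF1 ranged from 0.0421 (without siNC replicate 2) to 0.333 with a library left out. IFI44 was at 7.22 to 10.1 and 4.68 to 10.2 TPM (log2 fold change -0.26), and IFI35 at 16.95 to 19.4 and 16.5 to 19.1 TPM (log2 fold change -0.03).

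The GTPases and the exonuclease ISG20 gave no call. MX2, which restricts the nuclear entry of some viruses, was at 0.46 to 2.82 TPM in siNC and 0.25 to 1.45 TPM in siBCAT1 cells (log2 fold change -0.63, adjusted p = 0.312 by limma). GBP1, a guanylate-binding GTPase best known as an interferon-gamma target, was at 18.2 to 25.2 and 24.7 to 26.6 TPM (log2 fold change 0.19, adjusted p = 0.311 by limma), and 13.3% of its 50-base words are shared with other genes, mostly GBP1P1. ISG20 was at 2.72 to 7.29 and 6.03 to 8.15 TPM (log2 fold change 0.41, the highest of the 38, adjusted p = 0.348 by limma).

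The low effectors were MX1, RSAD2, CMPK2, TRIM22, IFI44L and EPSTI1. MX1, often used as a marker of interferon signalling, was at 0.41, 0.49 and 0.73 TPM in siNC cells and 0.53, 0.36 and 0.35 TPM in siBCAT1 cells. RSAD2, which encodes viperin, and CMPK2, its neighbour on chromosome 2, were each highest in siBCAT1 replicate 1, at 0.66 and 0.14 TPM, against at most 0.14 and 0.05 TPM in any other library. IFI44L was at 0.40 to 1.33 and 0.26 to 0.70 TPM and TRIM22 at 0.14 to 0.68 and 0 to 0.21 TPM. EPSTI1 did not exceed 0.04 TPM and was listed at 0 in all siBCAT1 libraries.

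The lowest library of each group was often the same for many members. Within siNC, replicate 2 was the lowest of the 3 libraries for 25 of the 38 tested members (65.8%), and it was the lowest for 36.3% of all tested genes. Within siBCAT1, replicate 3 was the lowest for 25 of the 38 (65.8%), beside 43.5% of all tested genes. Replicate 1 was the highest for 22 of the 38 (57.9%), beside 44.8% of all tested genes. The median deviation of the 38 from the siNC mean, on the log2(TPM + 1) scale, was 0.12, -0.19 and 0.03 in siNC and -0.35, -0.38 and -0.55 in siBCAT1 replicates 1, 2 and 3. By this median every siBCAT1 library lay below every siNC library, and the gap between siNC replicate 2 and siBCAT1 replicate 1 was smaller than the range within siNC. In siNC, 5 of the 38 (13.2%: OASL, IFITM1, MX2, ISG20 and XAF1) spanned at least 2-fold in TPM + 1 between the highest and the lowest library, beside 5.04% of all tested genes, while in siBCAT1 it was 1 of the 38 (2.63%: OASL) beside 4.38%.

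**Figure D3:**
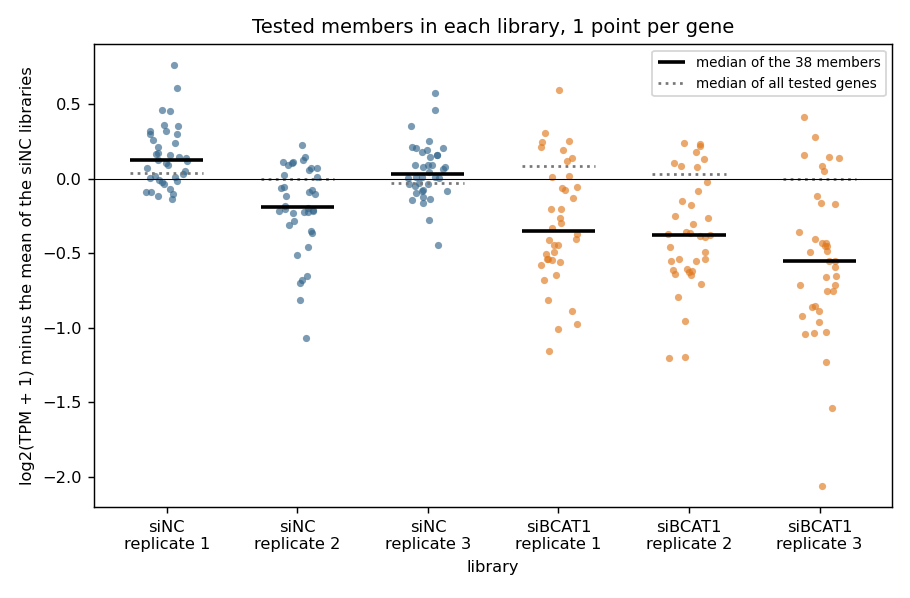
Difference of each tested gene from its siNC mean on the log2(TPM + 1) scale, in each of the 6 libraries, with 1 point per gene. The solid bars are the medians of the 38 genes, from 0.12 in siNC replicate 1 to -0.55 in siBCAT1 replicate 3, and the dotted bars are the medians of all tested genes, which stay near 0.

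A further 102 genes of the same pathway were listed by role, with members left out. Of these, 66 were tested, 14 were lower, 12 higher and 40 did not pass the threshold, with a median log2 fold change of -0.13. The shares, 21.2% lower and 18.2% higher, stand beside the 10.4% and 16.7% of all tested genes.

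The interferon genes themselves were near or at 0. None of the 21 was tested, 16 were listed at 0 in every library, IFNB1 among them, and the highest value of any was 0.51 TPM, for IFNE. Of the 16 listed genes of receptors and JAK-STAT signalling, 14 were tested, of which IFNGR2, SOCS1 and SOCS3 were lower and PTPN11 was higher, IFNGR2 and SOCS3 being named after their values were seen. IFNAR1 was at 15.6 ± 1.26 and 17.5 ± 1.95 TPM and IFNAR2 at 13.3 ± 3.08 and 10.4 ± 0.313 TPM in siNC and siBCAT1 cells (SD, n = 3 each), with adjusted p values of 0.356 and 0.221 (limma). JAK1 was at 67.0 ± 4.08 and 55.2 ± 5.13 TPM (SD, n = 3 each; log2 fold change -0.28, adjusted p = 0.0548 by limma), and TYK2 at 239 ± 24 and 227 ± 23.7 TPM (adjusted p = 0.617). The sensing adaptor MAVS (log2 fold change -0.10, adjusted p = 0.559) and the factor IRF3 (0.12, adjusted p = 0.170) did not pass the threshold of limma either.

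The pathway genes with the largest changes past the threshold were of several kinds. SOCS1, the feedback inhibitor of JAK kinases, fell from 7.64 ± 1.73 to 1.51 ± 0.585 TPM (SD, n = 3 each; log2 fold change -1.79, adjusted p = 0.00191 by limma). PTPN11, the phosphatase SHP2, rose from 25.1 ± 4.08 to 56.4 ± 3.35 TPM (SD, n = 3 each; log2 fold change 1.15, adjusted p = 0.000967 by limma). IRF2, a factor that competes with IRF1 for DNA, fell from 21.0 ± 3.68 to 9.37 ± 1.26 TPM (SD, n = 3 each; log2 fold change -1.08, adjusted p = 0.00290 by limma). Of 33 tested genes among the other interferon-inducible genes, 7 were lower and 8 higher. The cytidine deaminase APOBEC3G (-0.98), the ADP-ribosyltransferases PARP12 (-0.89) and PARP10 (-0.84) and the translation inhibitor SHFL (-0.67) fell, with log2 fold changes in parentheses. OGFR, an opioid growth factor receptor, rose from 13.9 ± 1.05 to 71.8 ± 1.72 TPM (SD, n = 3 each; log2 fold change 2.29, adjusted p = 3.75e-05 by limma), the largest change of the 66.

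**Figure D4:**
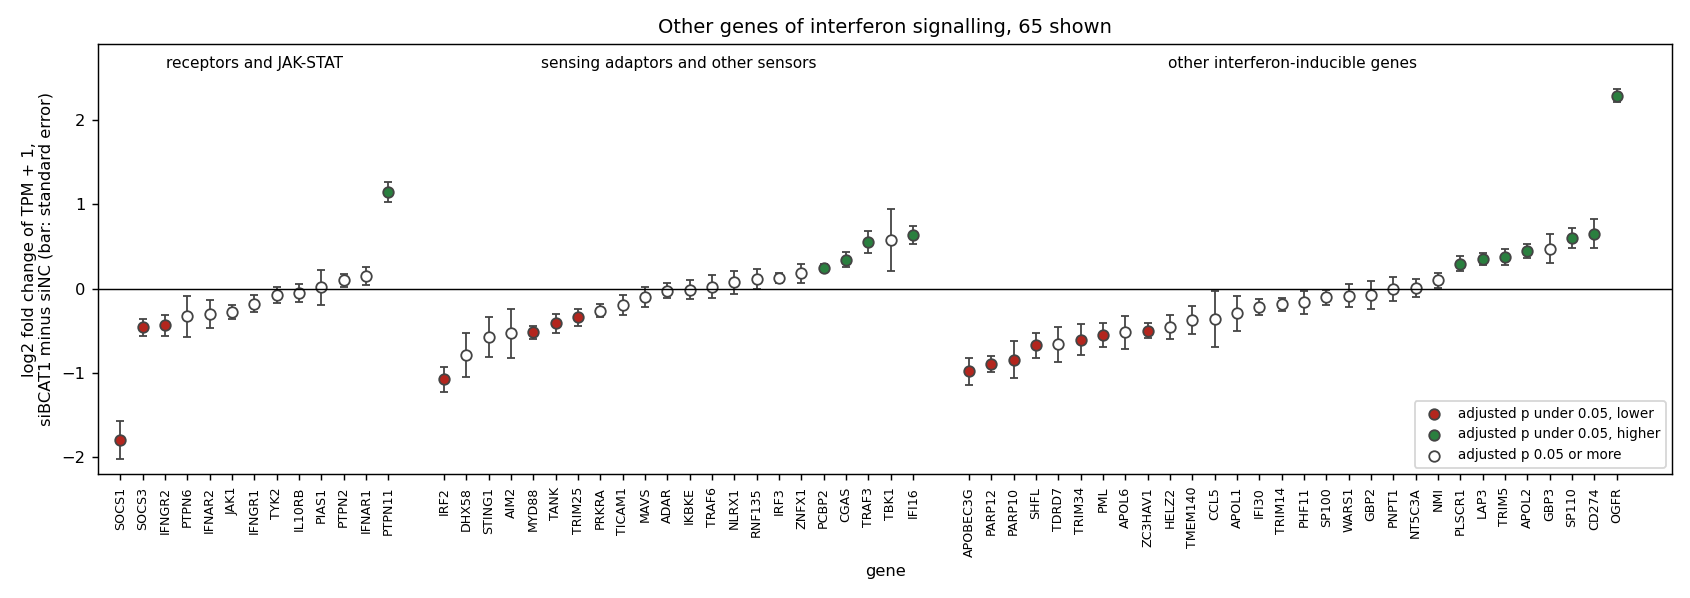
Log2 fold change of TPM + 1 between siBCAT1 and siNC cells on the vertical axis for 65 of the 66 tested genes of the interferon pathway other than the members, by role, with the standard error as a bar. Of the filled points 14 lie below and 12 above 0, from -1.79 for SOCS1 to 2.29 for OGFR.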

How the data were processed

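RNA-seq of 6 libraries of 67R cells was analysed (siNC and siBCAT1, 3 each, grouped from the labels). The authors trimmed, mapped and assembled the reads of stranded mRNA libraries (fastp, HISAT2, StringTie and GRCh38 per the submitters' processing notes; versions and annotation not given in the sources used here) and deposited a table with TPM of every gene in each library. The unit was read from the values. TPM holds no depth, so precision rests on the spread between libraries.

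limma 3.58.1 (R 4.3.3) was fitted to log2(TPM + 1) of the 14286 genes, of 60664, that averaged 1 TPM or more, with trended empirical Bayes variances and two-sided p-values. These were adjusted by Benjamini-Hochberg over all genes tested, at a threshold of 0.05. Fold changes on this scale understate those of low genes. A two-sided exact permutation test of 3 against 3 libraries cannot give a p below 0.1, so none is printed. The script was tested on simulated data. GENCODE 29 gave positions and shared 50-base words (58396 gene IDs matched). Other steps ran in Python 3.11.15 with pandas 2.3.3, numpy 2.4.6 and, for figures, matplotlib 3.10.9.

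The members, pathway lists and markers were chosen with earlier results of these data known. All members are accounted for, with values per library for sensors, factors and each other member that passed the threshold or had a mean of at least 50 TPM. Of the pathway genes past the threshold the 8 with the largest change are named, and IRF3, MAVS, IFNAR1, IFNAR2, JAK1, TYK2 and IFNB1 whatever their values. Another gene of that rule is not reported here. IFITM1 and the low effectors MX1, RSAD2 and CMPK2 were given values of single libraries after these were seen. Alternatives were no filter, a filter at 5 TPM, a pseudocount of 0.1, median-ratio scaling, quantile normalization, a replicate block, loess corrections, a minimum log2 fold change of 1 and each library left out.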

Additional observations from a re-analysis of the deposited data

How the results depend on the processing

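Under 15 alternatives, 468 of 556 member results kept their direction and side of the threshold, 53 lost a call, 29 gained one and 6 turned sign. The 53 all fell on the 12 called members and the 29 on the 26 others. The 468 therefore pool the calls with results that had no call to lose, and do not measure how steady the 12 were. The median log2 fold change of the tested members kept its sign throughout, and that of BCAT1 also stayed past the threshold. With no filter on low values, 2567 genes were called in all, 6 members were lower, and 7 pathway genes were lower and 7 higher. With a minimum log2 fold change of 1, 448 genes were called, 1 member was lower (IFIT3), and 2 pathway genes were lower and 2 higher. With each library left out in turn, 2318 to 3706 genes were called, of which 796 to 1430 were lower. Among members 4 to 16 were lower and 0 to 1 higher, and among pathway genes 6 to 15 were lower and 7 to 10 higher. Other settings gave 12 (mean of at least 5 TPM, 24 members tested), 14 (pseudocount of 0.1), 15 (median-ratio scaling), 14 (quantile normalization), 14 (loess correction for gene length) and 13 lower members (for GC content and length, chosen after seeing the data). The log2 fold changes that turned sign were those of IRF7 (0.044 with GC content and length corrected, 0.039 without siNC replicate 3 and 0.093 without siBCAT1 replicate 2), IFI35 (0.018 without siNC replicate 2 and 0.012 without siBCAT1 replicate 3) and USP18 (0.014 without siBCAT1 replicate 3), none past the threshold. With libraries left out, their lowest values were -0.13 (IRF7), -0.088 (IFI35) and -0.13 (USP18). The cause of these differences between settings was not tested.

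The replicate numbers are in the labels, but nothing says that they mark a shared culture or day. Libraries of the same number deviated together with correlations of 0.084, 0.102 and 0.124 over genes, and each correlated best with its own number, a hint from the data and not the design. With the replicate block, 17 members were lower, the 12 among them. Of all 14286 tested genes 4568 were then called, 1795 of them lower and 2773 higher.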
